A study of Mus musculus with 25 samples.

Results

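At 3 days after eccentric contraction injury, 3 arrays of mouse tibialis anterior muscle were compared with 3 arrays of uninjured tibialis anterior, 6 of the 25 arrays of the series, chosen by their sample titles. The tibialis anterior is a fast muscle at the front of the lower leg. All mice were female C57BL/6J animals 2 to 3 months old, with no transgene or drug named in the labels. The injured muscles had gone through 150 eccentric contractions in the living animal, in which the active muscle is stretched, and the controls were not injured. Injured samples carry the numbers 435, 449 and 467 and controls the numbers 1, 2 and 3, and values are printed in that order throughout. Muscles 6 hours (3 arrays), 1 day (2) and 7 days (3) after contraction shared the fit and gave the time context, while muscles injured by freezing at the same 4 times were left out of it. The comparison asks which transcripts of the muscle differed 3 days after the contractions, and which of these differences set this time apart from the earlier and later ones.

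Stretching an active muscle under load tears sarcomeres and membranes of part of its fibres. Monocytes enter from the blood, become macrophages and clear the torn fibres, while satellite cells, the stem cells of muscle, divide, differentiate under the transcription factors Myod1 and Myog, and fuse into new fibres. Adult fast fibres hold very abundant transcripts for contraction, glycolysis and mitochondria, and fibroblasts between the fibres make the collagen matrix.

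Each array gave 1 signal for each of 12488 probe sets, on a linear intensity scale, and the trimmed mean of the deposited signals was 150.1 on every array. Pearson correlations of log2 signals across probe sets were 0.949 to 0.965 among the 3 day arrays, 0.938 to 0.957 among controls and 0.879 to 0.935 between these groups. The 3 injured arrays differed in strength. Array 435 lay farthest from the control mean in 495 of the 793 genes called higher and 399 of the 628 called lower, and array 449 lay nearest in 463 and 406. The signal ratio of the 3' to the 5' actin control probe sets, used to judge RNA integrity, was 0.923 to 1.21 at 3 days. In controls it was 0.560 to 0.595, without overlap (exact permutation p = 0.1, two-sided, the smallest that 3 against 3 allows). The 3' signals were 4739.5, 6116.5 and 4438.0 in controls and 8510.9, 6918.1 and 6933.0 at 3 days. The 5' signals were 7960.1, 10921.4 and 7668.3, and then 7205.1, 5701.7 and 7513.1. What raised the actin ratio was not tested. The same ratio for Gapdh was 0.923 to 1.12 and 0.869 to 1.13 (exact permutation p = 0.8, two-sided), and the part of RNA integrity in the results was not tested. A freeze array at 3 days, sample 436, correlated at 0.800 to 0.802 with the other 2 arrays of its group and at 0.947 to 0.952 with the controls, and for this reason the model held only the 14 control and contraction arrays. Values said to be with all 25 arrays come from a fit that also held the freeze arrays, sample 436 among them. Several contraction and freeze samples carry neighbouring numbers, such as 435 and 436, and that fit treated them as independent. Whether any of the muscles came from the same animal is not in the labels, and the p-values therefore reflect how these particular samples varied, which can include technical variation.

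Changes are given as log2 differences of signal plus 13 units, with their standard error (SE). The threshold for calling a probe set was an adjusted p of 0.05 (limma, Benjamini-Hochberg over all 9033 probe sets tested). A call is said to be lost where an alternative setting did not meet the threshold, and not every such setting is named. At 3 days 1817 probe sets were called (20.1% of those tested), 1043 higher (11.5%) and 774 lower (8.57%). With all 25 arrays in the fit 539 were higher and 245 lower, and with sample 436 alone left out of these 1242 and 921. Without array 435 the count was 1128 in all, of which 431 were lower, and without array 467 the lower count was 512. With each gene represented by its brightest probe set, 793 of 6632 genes were called higher (12%) and 628 lower (9.47%). Counts of list members called against control are to be read beside these shares. The filter on low values counted the 3 day arrays too. A gene dim in controls could therefore be tested because it rose, while a gene dim throughout was not tested. For this reason the share called higher among genes tested can exceed that among genes on the array. Rises were larger than falls: 511 of the genes called higher and 262 of those called lower changed at least 2-fold, and 129 and 11 at least 4-fold. The median over all genes was -0.06. In 1189 genes every 3 day array lay above every control (17.9%), and in 1141 every one lay below (17.2%).

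Among genes whose 3 injured arrays all lay above the 3 controls, Lgals3, which encodes galectin-3 and is high in macrophages, rose the most. Its signals were 27.4, 23.3 and 4.7 in controls and 1350.5, 1540.2 and 1779.6 at 3 days, a change of 5.72 ± 0.30 (SE, adjusted p = 7.03e-09). The 3 injured arrays were close together and far above every control. The next largest rises were those of Apoe (5.29), the lysosomal protease gene Ctss (5.04), the lysozyme gene Lyz2 (4.86), Ankrd1 (4.85), the macrophage elastase gene Mmp12 (4.83), Rrad (4.80), Tyrobp (4.61), Lilr4b (4.26), Cd53 (4.25), Hspa1a (4.21) and Sirpa (4.09). Of these 12 genes, Ankrd1, Rrad and Hspa1a are known as stress or strain genes of striated muscle, and most of the others are known from myeloid cells. All 12 kept their call under every alternative setting tried.

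Falls were ranked among genes whose 3 injured arrays all lay below the 3 controls. The largest was that of Gpd1, the cytosolic glycerol-3-phosphate dehydrogenase of fast glycolytic fibres. Its signals were 1197.4, 1481.3 and 2476.8 in controls and 153.8, 213.4 and 258.4 at 3 days, 7.60-fold lower on the scale of signal plus 13 (-2.93 ± 0.24, adjusted p = 7.3e-07). The lack of overlap between control and injured arrays was set by this choice of genes. Wnt4, a secreted signalling protein, followed (-2.58), then the methyltransferase gene Smyd2 (-2.44), the phosphatase gene Ptp4a3 (-2.30), Phf7 (-2.29), the carboxylesterase gene Ces1d (-2.20), the glucose-6-phosphate transporter gene Slc37a4 (-2.10), the potassium channel gene Kcna7 (-2.09), Pola2 (-2.05), the angiotensinogen gene Agt (-2.04), the lipid droplet gene Plin4 (-2.02) and the oxygen sensor gene Egln1 (-2.0). The 3 day signals of Wnt4 (4.2, 11.7 and 5.7) were below the 13 units added, so its fold is understated. Phf7 rested on 1 of 5 probe sets and Pola2 on 1 of 2. With all 25 arrays Ces1d (adjusted p = 0.071) and Phf7 (0.075) were not called, and Phf7 was not called without array 467 (-1.83, adjusted p = 0.064).

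**Figure D1:**
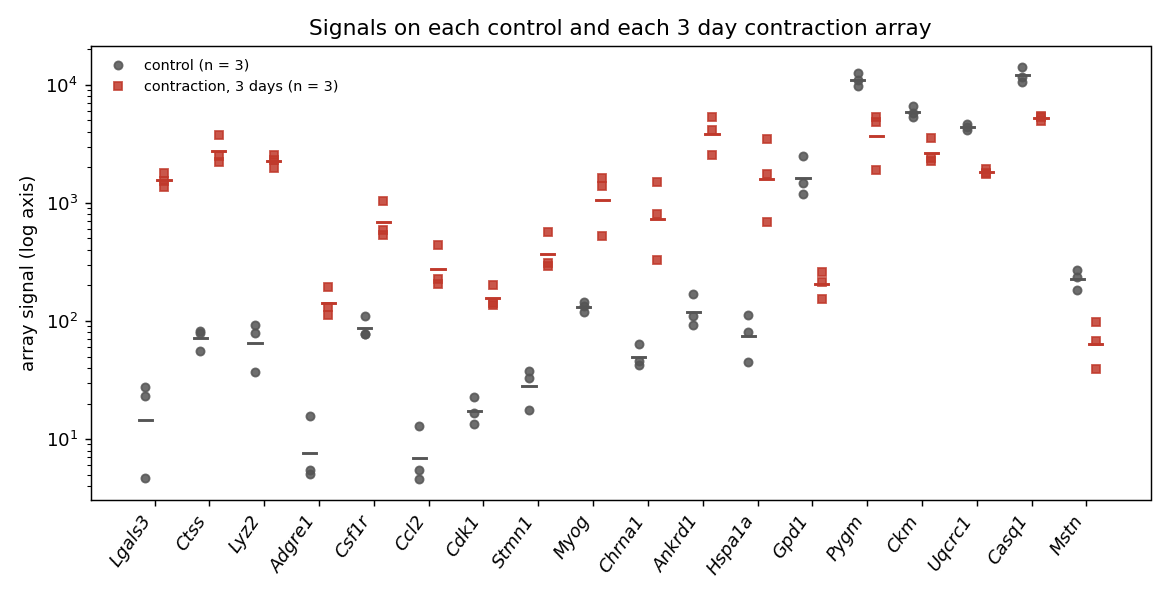
Signal of 18 genes on each of the 3 control arrays (grey circles) and 3 arrays of the 3 day contraction group (red squares), on a log axis, with a bar at the geometric mean of each group. In all 18 genes the groups do not overlap: the 12 from Lgals3 to Hspa1a are higher at 3 days and the 6 from Gpd1 to Mstn are lower, with the fall of Pygm largest on 1 array (1902.3, against 5377.7 and 4804.7).

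Macrophage genes had the highest median of the 32 gene lists. Of 30 macrophage markers listed, 24 were on the array by a probe set with 1 gene symbol and 23 passed the filter on low values. Of these, 20 rose and 0 fell, with a median of 2.50 beside -0.06 over all genes. With all 25 arrays 13 were called higher. Adgre1, which encodes the macrophage surface protein F4/80, gave 15.6, 5.1 and 5.5 in controls and 192.3, 130.9 and 112.2 at 3 days (2.86 ± 0.32, adjusted p = 1.75e-05). Csf1r, the receptor for the macrophage growth factor, gave 111.1, 77.1 and 76.9 and then 1036.4, 529.7 and 589.7 (2.81 ± 0.28). Both sets of injured signals were above every control, with array 435 the highest. Cd68, a lysosomal membrane protein of phagocytes, rose by 3.40 ± 0.25, Mpeg1, a pore-forming protein of macrophages, by 3.32 ± 0.35, and the scavenger receptor gene Msr1 by 1.93 ± 0.40. Cd14, a co-receptor for bacterial lipopolysaccharide, was not called (0.62, adjusted p = 0.234).

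Among genes of Fc receptors and leukocyte signalling, 18 of 25 tested rose and 0 fell (median 1.53; 7 with all 25 arrays). Lcp1, the leukocyte actin bundling protein, rose from 23.4, 49.1 and 16.6 to 790.1, 466.6 and 434.5 (3.78 ± 0.44). Cd52 (2.73), the inhibitory Fc receptor gene Fcgr2b (2.54) and Coro1a (2.45), which organises actin in leukocytes, rose too, as did Fcer1g (1.16 ± 0.33), the shared signalling chain of Fc receptors. Fcer1g was lost without array 435 (adjusted p = 0.097), array 449 (0.056) or control 2 (0.056), and with all 25 arrays (0.13). These 5 genes separated the groups on every array. Because the tissue is bulk muscle, more cells of a type and more RNA per cell cannot be told apart, and the same holds for falls.

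On the array were 14 neutrophil and 22 lymphocyte and mast cell markers, and many did not pass the filter. Of all genes tested 12% were called higher and 9.47% lower. Of 16 neutrophil markers 7 passed the filter and 0 were called by limma (median -0.22), with 1 lower at an unadjusted p under 0.05. S100a8, the calprotectin subunit that marks neutrophils, gave 25.1, 22.5 and 36.2 in controls and 32.4, 45.8 and 39.3 at 3 days, overlapping ranges near the dim end of the array. S100a9, its partner, did not pass the filter, with 14.3, 4.8 and 16.6 in controls and 21.5, 13 and 10.1 at 3 days. Of 25 lymphocyte and mast cell markers 11 passed the filter, 0 rose and 2 fell: Tpsb2, a mast cell tryptase (-0.81 ± 0.20), and Ms4a1, which encodes CD20 of B cells (-0.76 ± 0.26). Both were lost with all 25 arrays (adjusted p = 0.10 and 0.070). Tpsb2 was also lost without array 467 (-0.64, adjusted p = 0.054) and Ms4a1 without any 1 of the 6 arrays (adjusted p = 0.14, 0.052 and 0.12 without arrays 435, 449 and 467, and 0.10, 0.060 and 0.12 without controls 1, 2 and 3). The T cell receptor component Cd3e lay between 12.1 and 25.3 on all 6 arrays and did not pass the filter. In a separate set of 3 mast cell markers, which did not hold Tpsb2, 2 passed the filter. Of these 0 were called by limma, and their changes were 0.22 and 0.47, opposite in sign to that of Tpsb2.

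Of 30 lysosomal genes tested, 20 rose and 0 fell (median 1.03; 10 with all 25 arrays). Lgmn, the lysosomal asparaginyl protease legumain, went from 82.5, 105.7 and 81.5 to 1622.6, 1209.9 and 732.7 (3.48 ± 0.25, adjusted p = 2.05e-07). The injured arrays lay far above the controls, with array 467 the lowest of them. The cathepsin genes Ctsz (2.66) and Ctsh (2.42) and the progranulin gene Grn (2.58, on 1 of 2 probe sets) followed, of which Ctsh was lost with all 25 arrays (adjusted p = 0.093).

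Of 20 genes of lipid uptake, transport and storage tested 6 rose and 2 fell (1 and 0 with all 25 arrays), beside 12% and 9.47% of all genes tested. Apoe, the apolipoprotein that carries lipid out of macrophages, rose from 102.2, 207.9 and 19.7 to 5974.8, 2356.4 and 3484.0 (5.29 ± 0.65, adjusted p = 3.95e-05). Control 3 was far below the other controls, and every injured array was above all of them. The cholesterol exporter gene Abcg1 (1.41 ± 0.34) and the lipid droplet coat gene Plin2 (1.21 ± 0.25) rose, both lost with all 25 arrays (adjusted p = 0.073 and 0.12). Lpl, the lipoprotein lipase that feeds fatty acids to muscle, was lower (-0.92 ± 0.26), as was the fatty acid transporter gene Cd36 (-0.81 ± 0.23). Lpl was lost without array 467 (-0.65, adjusted p = 0.11) or without control 3 (-0.61, adjusted p = 0.091), and with all 25 arrays (0.071). Cd36 was lost without array 435 (adjusted p = 0.070), array 467 (0.098), control 1 (0.053) or control 2 (0.057), and with all 25 arrays (0.080). With only the 6 arrays compared in the fit, neither fall was called (adjusted p = 0.071 for Lpl and 0.051 for Cd36).

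In the complement list 4 of 12 genes tested rose and 0 fell (3 with all 25 arrays). The shares over all genes were 12% and 9.47%. C1qa, a chain of the recognition molecule C1q, rose from 91.1, 99.4 and 86.1 to 1379.2, 739.6 and 907.6 (3.23 ± 0.31). C1qc (2.50; adjusted p = 0.059 with all 25 arrays), the properdin gene Cfp (1.98) and the anaphylatoxin receptor gene C3ar1 (1.78) rose as well. The brightest probe set of the third chain gene, C1qb, was not called (-0.65, adjusted p = 0.172), while its other probe set was called higher, so its 2 probe sets disagree.

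Of 12 genes of MHC class II presentation, 5 rose and 0 fell (2 with all 25 arrays). The shares over all genes were 12% and 9.47%. Ifi30, a lysosomal thiol reductase that unfolds antigens, rose by 2.98 ± 0.36 and the peptide loading gene H2-DMa by 2.37 ± 0.32. The class II chains H2-Aa (2.62 ± 0.40) and H2-Ab1 (2.03 ± 0.41) rose and were not called with all 25 arrays (adjusted p = 0.054 and 0.062). Of 28 interferon response genes 9 rose and 0 fell, but with all 25 arrays 0 were called by limma, with 7 higher at an unadjusted p under 0.05. Ifi204, which encodes a DNA-sensing protein of myeloid cells, was the largest of them, from 53.5, 39.1 and 33.5 to 338.2, 166.1 and 178.1 (2.07 ± 0.30; adjusted p = 0.081 with all 25 arrays), followed by Ifi35 (1.52) and Usp18 (1.5).

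Of 38 chemokines, cytokines and receptors on the array 27 passed the filter, of which 7 rose and 0 fell (5 with all 25 arrays). The shares over all genes were 12% and 9.47%. The 7 included ligands and receptors of monocytes. Ccl2, the main monocyte attractant, rose from 4.6, 13 and 5.5 to 440.7, 207.5 and 228.6 (3.83 ± 0.44, adjusted p = 1.95e-05). Its receptor gene Ccr2, which marks monocytes that come from the blood, rose from 33.4, 42.6 and 15.1 to 377.6, 235.2 and 298.7 (2.90 ± 0.32). Ligand and receptor both separated the groups completely. Ccl9 rose by 3.77 ± 0.28 and Ccl8 by 2.76 ± 0.40, whereas Cxcl12, a chemokine made by resident stromal cells, was not called (-0.37, adjusted p = 0.204).

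Of the genes of the non-muscle actin cytoskeleton and S100 proteins, 26 of 37 tested rose and 2 fell (median 1.17; 16 and 1 with all 25 arrays). Tubb6, a tubulin of dividing and regenerating cells, rose from 250.1, 208.4 and 146.1 to 3893.3, 1994.4 and 2972.8 (3.77 ± 0.25, adjusted p = 9.2e-08). S100a4, a calcium-binding protein of motile cells, rose by 3.44 ± 0.21, Tmsb10, which binds actin monomers, by 3.35 ± 0.25 and Tubb2a by 3.00 ± 0.28 on 1 of its 2 probe sets. The falls were Rdx (-0.83 ± 0.22), a linker of actin to the membrane, and Myl9 (-0.76 ± 0.24), a myosin light chain of smooth muscle. Rdx was lost without array 435 (-0.59, adjusted p = 0.075). Myl9 was lost without array 435 (adjusted p = 0.11), array 467 (0.11), control 1 (0.086) or control 2 (0.076), and with all 25 arrays (0.055).

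**Figure D2:**
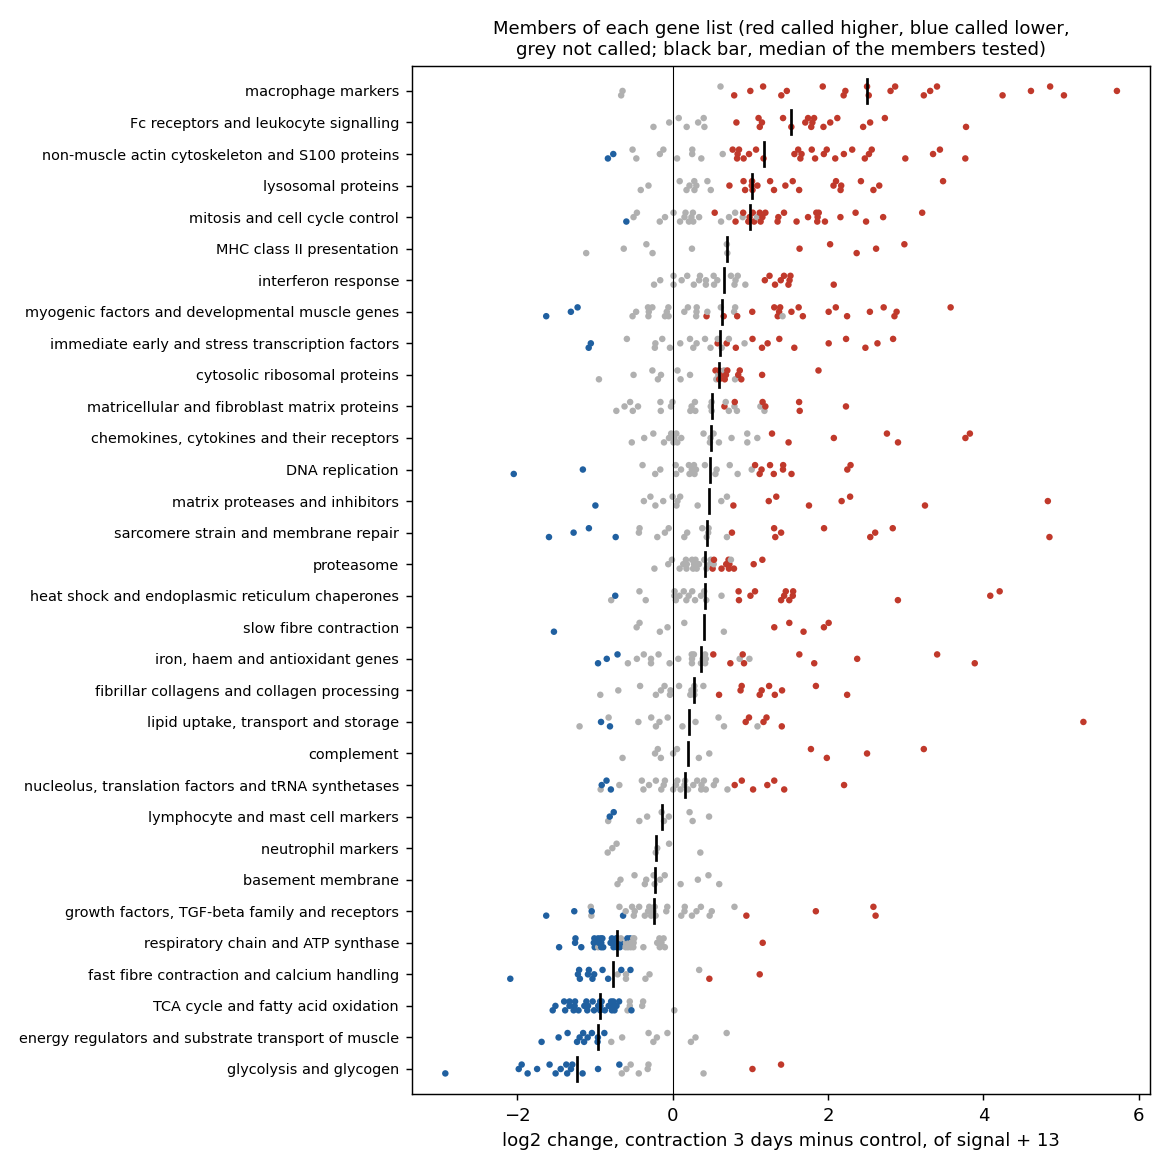
Log2 change of signal plus 13 from control to 3 days, 1 point for each member tested of 32 gene lists, in the order of their medians. Macrophage markers have the highest median (2.50) and glycolysis and glycogen the lowest (-1.23), and among TCA cycle and fatty acid oxidation members 31 of 37 are called lower and 0 higher.

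Many cell division genes were higher. In the list for mitosis and cell cycle control 26 of 45 tested rose and 1, Pttg1, fell (median 0.99, with 13 and 0 called with all 25 arrays). The list had 50 genes on the array, and those not tested did not pass the filter. Members dim in controls, such as Cdk1 and Cks1b, may have passed it only by their 3 day signals. The call of Pttg1 (-0.60, adjusted p = 0.0421) was lost when array 435 (-0.51, adjusted p = 0.15), array 449 (-0.57, 0.09), control 1 (-0.52, 0.13), control 2 (-0.64, 0.059) or control 3 (-0.63, 0.060) was left out, and with all 25 arrays (0.18). Stmn1, which destabilises microtubules in dividing cells, rose from 37.6, 32.9 and 17.7 to 565.2, 290.5 and 310.6 (3.21 ± 0.34). Cdk1, the kinase that starts mitosis, rose from 22.8, 16.7 and 13.4 to 201.8, 136.7 and 141.8 (2.49 ± 0.33, adjusted p = 7.83e-05). Its partner subunit gene Cks1b went from 16.2, 7.6 and 20.7 to 206.4, 133.8 and 163.3 (2.71 ± 0.46). In each of the 3 genes the injured arrays were several-fold above the highest control. Prc1, which bundles spindle microtubules, rose by 2.35 ± 0.42, the G1 cyclin gene Ccnd1 by 1.88 ± 0.29 on 1 of 2 probe sets, and the topoisomerase gene Top2a by 1.85 ± 0.41 (adjusted p = 0.078 with all 25 arrays).

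Of 30 DNA replication genes tested 10 rose and 2 fell (7 and 2 with all 25 arrays), beside 12% and 9.47% of all genes tested. Uhrf1, which keeps DNA methylation through replication, rose from 21.3, 8.7 and 13 to 144.6, 97.3 and 117.3 (2.29 ± 0.34). Rrm2, the ribonucleotide reductase subunit that sets the supply of deoxynucleotides, rose by 2.25 ± 0.28, and the helicase subunits Mcm4 by 1.53 ± 0.28 and Mcm2 by 1.42 ± 0.35. Mcm5 missed the threshold (0.73, adjusted p = 0.0518), with 247.0, 160.9 and 151.8 at 3 days all above controls of 106.3, 104.2 and 102.6. The 2 that fell were Pola2 (-2.05 ± 0.39), a subunit of the primase complex, and Cdc45 (-1.16 ± 0.39), a helicase cofactor whose arrays overlapped. Cdc45 was lost without array 435 (-0.74, adjusted p = 0.22), array 467 (-0.95, 0.16), control 1 (-1.04, 0.13) or control 3 (-1.07, 0.11).

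Promoter windows of 3 genes that rose are shown because they hold known cell cycle elements, which most windows of the replication list did not. Sequences are the RefSeq windows of GRCm38.p6 from 250 bases before to 50 after the start of transcription, 5′ to 3′ on the strand of the gene. The cell cycle homology element (TTTGAA or TTCGAA, either strand), bound by the complex that times G2 and mitotic genes, is in capitals in Cdk1 (chr10:69352863-69353162, minus strand) and Cks1b (chr3:89418242-89418541, minus strand). The E2F element (TTTCGCGC or TTTGGCGC, either strand), bound by the E2F factors that start S phase, is in capitals in Uhrf1 (chr17:56304063-56304362, plus strand).
Cdk1: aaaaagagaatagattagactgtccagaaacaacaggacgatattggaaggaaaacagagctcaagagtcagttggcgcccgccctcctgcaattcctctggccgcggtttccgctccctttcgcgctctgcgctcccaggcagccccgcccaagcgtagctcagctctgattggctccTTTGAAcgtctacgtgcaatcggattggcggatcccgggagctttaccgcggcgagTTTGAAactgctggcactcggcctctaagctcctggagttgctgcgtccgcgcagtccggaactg
Cks1b: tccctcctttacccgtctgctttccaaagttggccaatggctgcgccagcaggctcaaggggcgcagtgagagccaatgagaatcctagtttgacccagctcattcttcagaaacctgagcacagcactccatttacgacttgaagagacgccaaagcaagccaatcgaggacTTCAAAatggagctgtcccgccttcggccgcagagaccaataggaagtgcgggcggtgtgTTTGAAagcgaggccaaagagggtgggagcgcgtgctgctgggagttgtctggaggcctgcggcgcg
Uhrf1: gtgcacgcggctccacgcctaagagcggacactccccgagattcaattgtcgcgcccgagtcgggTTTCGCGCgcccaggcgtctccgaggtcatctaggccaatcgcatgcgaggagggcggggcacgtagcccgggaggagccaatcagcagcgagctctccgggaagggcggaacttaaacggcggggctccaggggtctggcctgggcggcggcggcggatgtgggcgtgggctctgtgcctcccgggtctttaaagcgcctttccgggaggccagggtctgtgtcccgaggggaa
In Cdk1 the elements begin 71 and 15 bases before the start and in Cks1b 77 and 17 bases before it. The Cdk1 window also holds 1 match to the E2F element, left in lower case. Promoter windows were found for 36 of the 45 mitosis genes tested, 41 windows in all, of which 23 (56.1%) held the homology element, beside 14% of the 6864 windows of all genes tested. Among the 22 windows of mitosis genes called higher 12 held it. Of the 35 windows of 27 replication genes 9 (25.7%) held the E2F element, beside 1.47%, and 3 of the 12 windows of replication genes called higher held it. A match in these windows is a description of the letters and does not show binding.

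Of 25 genes of fibrillar collagens and collagen processing, 10 rose and 0 fell, and with all 25 arrays 0 were called by limma, with 8 higher at an unadjusted p under 0.05. Col5a2, a minor fibrillar collagen, rose by 2.25 ± 0.36 (adjusted p = 0.083 with all 25 arrays). Col3a1 rose from 374.9, 396.7 and 144.0 to 992.7, 1126.7 and 994.6, called on all 3 of its probe sets (1.84 ± 0.32; adjusted p = 0.16 with all 25 arrays). Col1a1, the chief collagen of scar and tendon, gave 979.5, 1063.6 and 504.5 and then 2254.5, 1750.6 and 1816.2 (1.24 ± 0.42, adjusted p = 0.0453). The groups did not overlap, but the call was lost without array 435 (adjusted p = 0.14), array 449 (0.068), array 467 (0.092), control 1 (0.065) or control 3 (0.17), and with all 25 arrays (0.33). It was also lost with no filter on low values (adjusted p = 0.067), with arrays centred on their medians (0.059) and with no trend in the prior variance (0.071). Lox, which crosslinks collagen (1.41), and the collagen chaperone gene Serpinh1 (1.32) also rose, both lost with all 25 arrays (adjusted p = 0.18 and 0.11).

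Of 13 basement membrane genes 0 were called in either direction by limma (median -0.23), with 2 lower at an unadjusted p under 0.05. In the list of matricellular and fibroblast matrix proteins 7 of 29 rose and 0 fell (1 with all 25 arrays). The shares over all genes were 12% and 9.47%. Postn, a matricellular protein of wounds, rose by 2.23 ± 0.35 and the proteoglycan gene Bgn by 1.64 ± 0.34 (adjusted p = 0.084 and 0.12 with all 25 arrays). Fn1, fibronectin, rose by 0.67 ± 0.18 and was lost without array 435 (0.57, adjusted p = 0.071) and with all 25 arrays (0.20). Tnc, another wound matrix protein, was not called (1.13, adjusted p = 0.059), with overlapping arrays. Among proteases and inhibitors 8 of 20 rose and 1 fell (5 and 0 with all 25 arrays). Mmp12 rose from 28.3, 17.5 and 7.5 to 1341.4, 512.0 and 822.8 on both of its probe sets (4.83 ± 0.55). The membrane proteases Adam8 (3.25 ± 0.42) and Adam19 (2.28 ± 0.39) and the inhibitor gene Timp1 (2.18 ± 0.32) rose, while another inhibitor gene, Timp3, fell (-0.99 ± 0.22; adjusted p = 0.13 with all 25 arrays).

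Of 42 myogenic and developmental genes tested 19 rose and 3 fell (median 0.64; 12 and 3 with all 25 arrays). Myog, the factor that drives myoblasts into differentiation, rose from 135.0, 118.9 and 143.8 to 1382.1, 527.5 and 1616.4 (2.88 ± 0.33, adjusted p = 2.24e-05). Array 449 gave the lowest injured signal, still above every control. Myod1, which commits cells to muscle, rose by 1.68 ± 0.31 and Myf6, the related factor of mature fibres, by 1.35 ± 0.33. Id2, an inhibitor of such factors, rose by 2.86 ± 0.42. Myh3, the embryonic myosin heavy chain of new fibres, went from 4.6, 1.1 and 19.7 to 106.2, 86.5 and 60.0 (2.25 ± 0.38; adjusted p = 0.052 with all 25 arrays).

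Subunits of the muscle acetylcholine receptor were among the largest rises of the list. Chrna1 rose from 42.4, 45.5 and 64.2 to 803.4, 328.8 and 1516.0 (3.58 ± 0.44, adjusted p = 3.9e-05). The fetal subunit gene Chrng rose from 83.0, 19.3 and 24.2 to 475.4, 134.1 and 443.1 on both of its probe sets (2.72 ± 0.52, adjusted p = 0.00172). On both genes array 449 gave the lowest injured signal, above the controls. Array 449 was also lowest of the 3 for Runx1 (122.1, 48.1 and 437.5), Gadd45a (1273.3, 625.9 and 2181.9) and Krt18 (311.0, 52.3 and 612.2), genes chosen for this remark after their values were seen. The 3 genes that fell were Mstn, which encodes the growth inhibitor myostatin (-1.63 ± 0.27), the cardiac and embryonic actin gene Actc1 (-1.31 ± 0.22) and the homeobox gene Six4 (-1.22 ± 0.24, on 1 of 3 probe sets).

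The promoters of both receptor genes hold the E-box CAGCTG, a palindrome bound by Myod1 and Myog, in capitals in the windows of Chrna1 (chr2:73580289-73580588, minus strand) and Chrng (chr1:87205561-87205860, plus strand), from the same build and source.
Chrna1: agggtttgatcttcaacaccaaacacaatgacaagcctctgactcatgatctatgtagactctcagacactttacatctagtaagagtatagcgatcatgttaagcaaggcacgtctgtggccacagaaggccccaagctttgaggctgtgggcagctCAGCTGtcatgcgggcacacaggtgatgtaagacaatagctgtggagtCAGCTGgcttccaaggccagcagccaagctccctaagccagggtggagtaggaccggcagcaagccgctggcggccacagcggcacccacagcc
Chrng: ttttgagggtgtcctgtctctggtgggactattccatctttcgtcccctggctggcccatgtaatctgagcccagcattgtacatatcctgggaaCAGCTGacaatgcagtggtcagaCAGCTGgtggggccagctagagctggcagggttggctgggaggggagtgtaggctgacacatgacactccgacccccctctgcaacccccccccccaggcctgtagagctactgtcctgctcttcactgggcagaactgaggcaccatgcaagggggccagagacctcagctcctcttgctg
The E-boxes begin 92 and 44 bases before the start in Chrna1 and 155 and 132 bases before it in Chrng. Windows were found for 6 of 9 receptor subunit, Musk and myogenic factor genes, a set chosen after their values were seen, and 4 of the 6 (66.7%) held the E-box, beside 15.1% of the windows of all genes tested. Of the 4 windows of genes called higher, 2 held it. Chrne and Musk, which were not called, also held it in their windows. As above, a match describes the letters only.

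Of 25 genes that respond to sarcomere strain or repair the membrane, 9 rose and 4 fell (8 and 0 with all 25 arrays). The shares over all genes were 12% and 9.47%. Ankrd1, a strain-sensitive protein of the sarcomere, rose from 92.5, 170.2 and 109.2 to 4166.9, 2540.5 and 5304.1 (4.85 ± 0.24, adjusted p = 7.03e-09), and its relative in strain sensing Csrp3 from 764.5, 422.3 and 384.0 to 2440.9, 3880.4 and 2776.2 (2.54 ± 0.25). The annexin genes of membrane repair Anxa2 (2.83 ± 0.20) and Anxa1 (2.61 ± 0.24) rose. The genes that fell were Ldb3 (-1.59 ± 0.34) and Myoz1 (-1.27 ± 0.22), both of the Z-disc, Actn3 (-1.08 ± 0.30), its fast-fibre crosslinker, and Sgca (-0.73 ± 0.24), a membrane protein linked to dystrophin, and none of these 4 was called with all 25 arrays (adjusted p = 0.069, 0.13, 0.19 and 0.18). Actn3 was lost without array 435 (adjusted p = 0.053), array 449 (0.067) or control 3 (0.079), and under quantile normalization its change was -0.40 (0.11). Sgca was lost without array 435 (0.21), array 449 (0.052), control 1 (0.15) or control 2 (0.12).

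Of 30 heat shock and chaperone genes 13 rose and 1, Herpud1, fell (11 and 0 with all 25 arrays). Hspa1a, an inducible Hsp70, rose from 111.6, 45.2 and 80.2 to 682.8, 1763.1 and 3452.6 (4.21 ± 0.42, adjusted p = 5.4e-06) and with array 435 the lowest of the injured arrays. Its near-identical copy Hspa1b (4.09 ± 0.48) may share its signal. Hsp90aa1, the inducible Hsp90, rose by 2.90 ± 0.32 and the extracellular chaperone gene Clu by 1.55 ± 0.24. Herpud1 (-0.74, adjusted p = 0.0183) was lost without array 435 (adjusted p = 0.079) or control 2 (0.085), and with all 25 arrays (0.061).

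Immediate early genes and stress transcription factors rose in 13 of 30 cases and 2 fell (7 and 1 with all 25 arrays). The shares over all genes were 12% and 9.47%. Fos rose by 2.84 ± 0.32, Atf3 by 2.64 ± 0.23, Runx1 by 2.48 ± 0.53 and Gadd45a by 2.23 ± 0.42. Myc was called (1.15 ± 0.35, adjusted p = 0.0282) but lost without array 435 (adjusted p = 0.065), array 467 (0.13), control 1 (0.070) or control 3 (0.099), and was 0.54 (0.056) with a pseudocount of 50. It was lost with all 25 arrays too (adjusted p = 0.076). The falls were Nr4a1 (-1.08 ± 0.34) and Gadd45b (-1.05 ± 0.29). Nr4a1 was lost without array 435 (adjusted p = 0.15), array 467 (0.052), control 2 (0.062) or control 3 (0.12) and with all 25 arrays (0.25), and Gadd45b without array 435 (0.068), control 1 (0.074) or control 2 (0.076).

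Of 31 iron, haem and antioxidant genes 9 rose and 3 fell (6 and 1 with all 25 arrays). The shares over all genes were 12% and 9.47%. The metallothionein genes, whose proteins bind zinc and copper, rose the most, Mt2 from 246.3, 253.5 and 240.5 to 4449.9, 3343.8 and 3790.9 (3.89 ± 0.24, adjusted p = 3.41e-08) and Mt1 by 3.41 ± 0.33. The thioredoxin gene Txn1 (2.38 ± 0.295) and the sulfiredoxin gene Srxn1 (1.82 ± 0.30, on 1 of 2 probe sets) rose. Hmox1, which degrades haem, rose by 0.92 ± 0.23 and was lost without array 435 (0.77, adjusted p = 0.051) and with all 25 arrays (0.18). The genes that fell were Gpx3 (-0.96 ± 0.22) and the mitochondrial enzymes Sod2 (-0.85 ± 0.22) and Prdx3 (-0.71 ± 0.22). Sod2 was lost without array 435 (-0.57, adjusted p = 0.078) or control 2 (-0.75, 0.051), and Prdx3 without array 435 (-0.50, 0.16), control 1 (-0.72, 0.071) or control 3 (-0.59, 0.10). Neither Sod2 (0.14) nor Prdx3 (0.13) was called with all 25 arrays.

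Of 24 glycolysis and glycogen genes 15 fell and 2 rose, with the lowest median of the 32 lists (-1.23; 4 and 1 called with all 25 arrays). Besides Gpd1, Pygm, the muscle glycogen phosphorylase, fell from 10908.1, 12628.7 and 9700.7 to 1902.3, 5377.7 and 4804.7, 3.00-fold lower (-1.58 ± 0.32, adjusted p = 0.00224). The insulin-regulated glucose transporter gene Slc2a4 fell by 1.98 and the phosphorylase kinase subunit gene Phkg1 by 1.94 on the log2 scale. In both Pygm and Slc2a4 array 435 was far below the other 2. With all 25 arrays these 3 genes were not called (adjusted p = 0.074, 0.066 and 0.055). The 2 rises were the basal glucose transporter gene Slc2a1 (1.40 ± 0.43) and the hexokinase gene Hk1 (1.03 ± 0.30). Slc2a1 was lost without array 435 (adjusted p = 0.083), array 449 (0.057), array 467 (0.091), control 1 (0.072) or control 2 (0.10), and Hk1 without array 467 (0.73, adjusted p = 0.12) or control 3 (0.79, 0.096).

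Of 37 genes tested for the TCA cycle and for oxidation of fatty acids, 31 fell and 0 rose (median -0.93; 10 with all 25 arrays). Eci1, an isomerase of fatty acid oxidation, fell from 1434.0, 1564.7 and 1128.3 to 339.5, 547.7 and 518.8 (-1.54 ± 0.20, adjusted p = 5.54e-05). The acyl-CoA dehydrogenase gene Acadm (-1.51 ± 0.25), the carnitine acetyltransferase gene Crat (-1.40 ± 0.19) and the ketone body enzyme gene Oxct1 (-1.38 ± 0.17) fell to a similar extent and were called under every alternative setting.

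Of 47 genes of the respiratory chain and ATP synthase 27 fell and 1 rose (median -0.71; 3 and 1 with all 25 arrays). Uqcrc1, a core protein of complex III, fell from 4387.8, 4158.6 and 4655.0 to 1800.1, 1763.1 and 1940.5, 2.39-fold lower with little spread (-1.26 ± 0.17, adjusted p = 0.00011). The complex I subunits Ndufs1 (-1.46 ± 0.20) and Ndufa9 (-1.25 ± 0.21) fell as well. Cox8b, a subunit of cytochrome c oxidase of muscle and brown fat, fell by 1.00 on 1 of its 2 probe sets (adjusted p = 0.23 with all 25 arrays). The gene that rose was Cox6a1, the form of cytochrome c oxidase subunit VIa used outside heart and skeletal muscle, from 515.5, 508.0 and 371.3 to 1352.6, 852.5 and 984.5 (1.16 ± 0.24, adjusted p = 0.0025).

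Among 21 energy regulators and transporters of muscle 12 fell and 0 rose (1 with all 25 arrays), including adenylate kinase Ak1 (-1.69 ± 0.22; adjusted p = 0.052 with all 25 arrays), Adssl1 (-1.35 ± 0.22; 0.056) and myoglobin, Mb (-1.23 ± 0.24; 0.13). Ppargc1a, the coactivator that drives mitochondrial biogenesis, gave 18.5, 30.1 and 21.9 and then 15.9, 19 and 13.9 and was not called (-0.31, adjusted p = 0.495).

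Contractile genes of fast fibres fell in 12 of 20 cases and rose in 2 (median -0.77), but with all 25 arrays only 1 was lower and 1 higher. Casq1, the calcium store protein of the sarcoplasmic reticulum, fell from 10563.4, 11616.8 and 14266.5 to 4922.5, 5466.9 and 5299.9 (-1.20 ± 0.21; adjusted p = 0.074 with all 25 arrays). The calcium buffer gene Pvalb fell on both of its probe sets (-1.19 ± 0.27; 0.13). Myh4, the myosin of the fastest fibres, gave 15067.9, 17696.2 and 30947.1 and then 7556.3, 8670.8 and 13013.7 (-1.09 ± 0.32, adjusted p = 0.0224). That call was lost without array 435 (adjusted p = 0.093), array 449 (0.057) or control 3 (0.091), and under quantile normalization the change was -0.43. Atp2a1, the fast calcium pump, was similar (-0.83 ± 0.26), lost without array 435 (adjusted p = 0.12), array 449 (0.083), control 2 (0.061) or control 3 (0.12), and was -0.15 under quantile normalization; with all 25 arrays its adjusted p was 0.23. Ckm, creatine kinase of muscle, fell by 1.14 on 1 of 2 probe sets (adjusted p = 0.19 with all 25 arrays). The skeletal actin gene Acta1 was not called (-0.35, adjusted p = 0.504). The calcium channel subunit gene Cacng1 rose (1.12 ± 0.21), and Fkbp1a, which binds the calcium release channel, was called higher (0.47, adjusted p = 0.035) but lost without array 435 (adjusted p = 0.10), array 467 (0.10), control 1 (0.091) or control 3 (0.073).

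In the slow fibre list 5 of 12 genes rose and 1 fell (2 and 0 with all 25 arrays). The shares over all genes were 12% and 9.47%. The slow troponin genes Tnni1 (2.01 ± 0.30) and Tnnt1 (1.69 ± 0.35, on 1 of 2 probe sets), also expressed in developing fibres, rose, though not with all 25 arrays (adjusted p = 0.079 and 0.080). The calcium pump gene of slow fibres Atp2a2 rose by 1.95 ± 0.28. Myl3, the slow myosin light chain, was called lower (-1.53 ± 0.38) with overlapping arrays and was lost without array 435 (adjusted p = 0.058) or array 467 (0.050).

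Of 24 ribosomal protein genes tested 12 rose and 0 fell (median 0.60), 6 with all 25 arrays and 4 with only the 6 arrays compared in the fit. Rpl13a rose from 77.5, 61.3 and 67.2 to 281.5, 235.7 and 352.2 (1.88 ± 0.20) and Rps19 by 1.15 ± 0.24. Of 30 proteasome genes 10 rose and 0 fell (median 0.42), 6 with all 25 arrays and 2 with only the 6 arrays, led by Psmd4 (1.15 ± 0.26) and Psmd8 (1.04 ± 0.23). Among nucleolar and translation genes 7 of 35 rose and 3 fell (5 and 0 with all 25 arrays). The shares over all genes were 12% and 9.47%. The elongation factor gene Eef1a1 rose from 1886.0, 1699.8 and 1134.3 to 8690.2, 5148.5 and 8160.1 (2.21 ± 0.28), while Eef1a2, the form that adult muscle uses, went from 8758.7, 8572.8 and 16622.9 to 5906.1, 5270.1 and 5986.5 (-0.91 ± 0.27, adjusted p = 0.0254). The Eef1a2 call was lost without array 435 (adjusted p = 0.058), array 449 (0.064), array 467 (0.058) or control 3 (0.10) and with all 25 arrays (0.25), and under quantile normalization the change was -0.47. The nucleolar genes Ncl (1.31 ± 0.23) and Npm1 (1.22 ± 0.21) rose under every alternative setting.

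Of 34 growth factors, TGF-beta family members and receptors 4 rose and 4 fell (1 and 2 with all 25 arrays), beside 12% and 9.47% of all genes tested. Tgfb1 rose from 8.9, 9.6 and 9.3 to 207.6, 95.9 and 92.1 (2.61 ± 0.47; adjusted p = 0.074 with all 25 arrays), and the TGF-beta induced matrix gene Tgfbi rose by 1.84 ± 0.28 (0.087). The falls besides Mstn included Vegfb (-1.27 ± 0.19), a growth factor of the vascular endothelial family. The insulin-like growth factor genes were not called: Igf1 gave -0.30 (adjusted p = 0.33), though another of its probe sets was called higher, and Igf2 gave 0.31 (0.492).

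**Figure D3:**
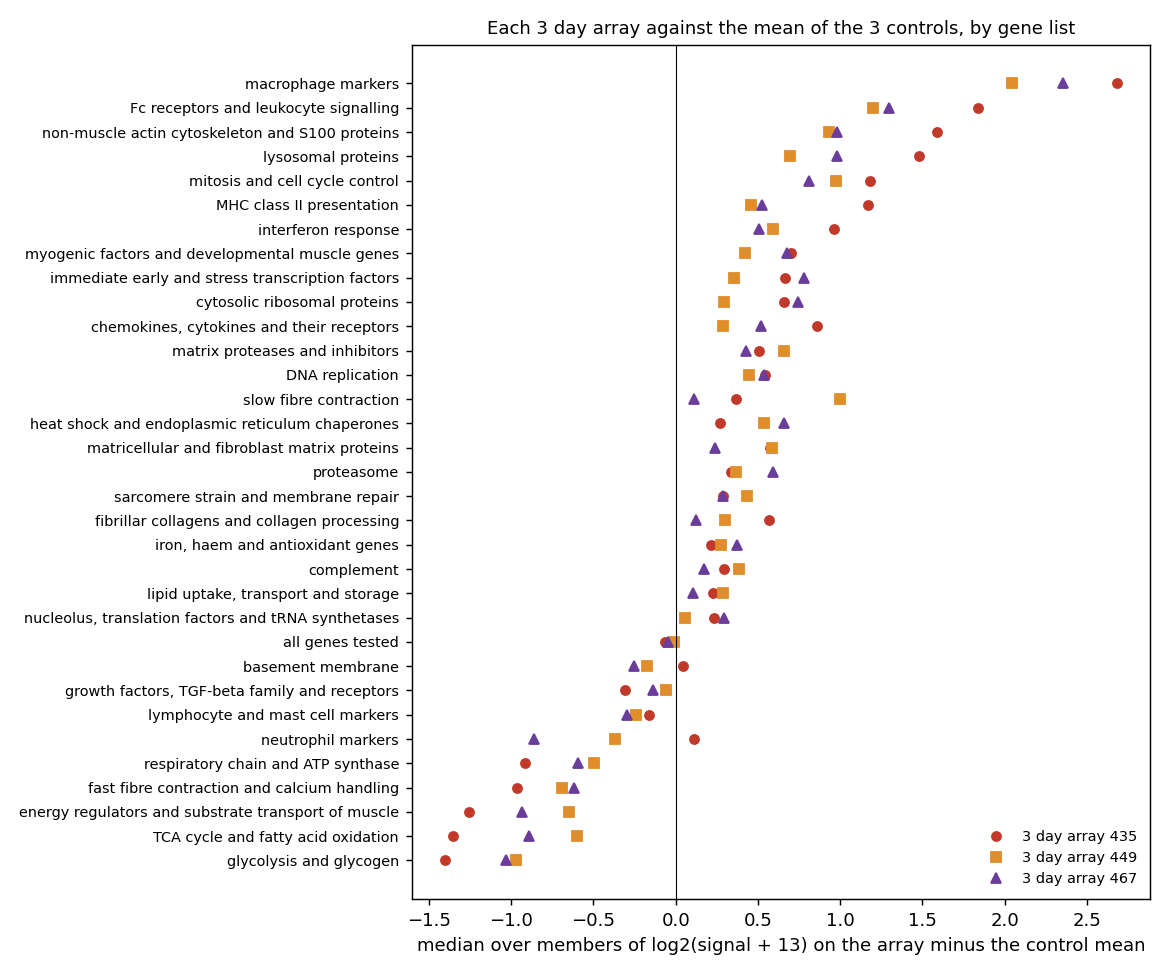
For each gene list and for all genes tested, the median over members of log2(signal + 13) on each 3 day array minus the mean of the 3 controls. Array 435 (red circles) lies farthest from 0 in macrophage markers (2.68, against 2.05 and 2.35) and in glycolysis and glycogen, while all genes tested lie near 0 on each array.

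The 3 day muscles were also set against the contraction muscles at 1 and 7 days. Against 1 day (2 arrays) 630 probe sets were called (6.97%), 382 higher at 3 days (4.23%) and 248 lower (2.75%). Without array 463 of the 1 day group, array 421 of that group or array 435 the counts were 154, 286 and 282, and with all 25 arrays 31 were higher and 79 lower. Against 7 days 971 were called (10.7%), 586 higher (6.49%) and 385 lower (4.26%). With the arrays centred on their medians the split was 459 higher and 470 lower, and without array 435 of the 3 day group, or arrays 453 and 425 of the 7 day group in turn, the counts were 389, 504 and 510. With all 25 arrays the count was 80.

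Of 23 macrophage markers tested, 16 were higher than at 1 day and 17 higher than at 7 days, and 0 lower, beside 4.55% and 6.98% of all genes that were higher. By limma with all 25 arrays these counts were 0 and 2, with 14 and 14 higher at an unadjusted p under 0.05. Ctss gave 100.7, 132.0 and 91.2 at 6 hours, 350.1 and 180.9 at 1 day, and 190.9, 717.8 and 449.8 at 7 days, so that its 3 day arrays (3781.7, 2240.4 and 2475.0) lay above all others, though with all 25 arrays neither difference was called (adjusted p = 0.20 against 1 day and 0.20 against 7 days). In the mitosis list 18 of 45 were higher than at 1 day and 18 higher than at 7 days, but 1 and 1 with all 25 arrays. Cdk1 was 2.68 above its 1 day and 2.79 above its 7 day level on the log2 scale (adjusted p = 0.00042 and 0.00011; 0.021 and 0.010 with all 25 arrays), and at 6 hours, 1 day and 7 days it was not called against control (limma, adjusted p = 0.622, 0.875 and 0.764). Ccl2 was already at 3.68 above control at 6 hours and 3.78 at 1 day, 3.83 at 3 days and 0.57 (adjusted p = 0.64) at 7 days.

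Many chaperone genes were below their 1 day level. Of 30 chaperone genes 16 were lower at 3 days than at 1 day and 11 higher than at 7 days, beside 2.96% and 6.98% of all genes (10 and 7 with all 25 arrays). Hspa1a gave 12628.6, 13031.1 and 20108.7 at 6 hours and 11635.0 and 13132.6 at 1 day, all above the 3 day arrays, and 156.1, 120.1 and 97.3 at 7 days. Fos followed the same course (-3.02 from 1 to 3 days and 2.16 above 7 days). Ankrd1 was not called between 1 and 3 days (-0.46, adjusted p = 0.38) and was 2.29 above its 7 day level.

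Of 42 myogenic and developmental genes tested, 9 were higher at 3 days than at 1 day and 3 lower, beside 4.55% and 2.96% of all genes. Against 7 days 3 were higher and 9 lower, beside 6.98% and 4.92%. The counts with all 25 arrays were 3 and 1 against 1 day and, by limma, 0 and 4 against 7 days, with 7 and 8 at an unadjusted p under 0.05. Myod1 was already raised at 6 hours (2.83) and 1 day (2.45). Myog was higher at 3 days than at 1 day (2.01) and 7 days (1.65), neither called with all 25 arrays (adjusted p = 0.14 and 0.16). Chrna1 was not called between 3 and 7 days (0.43, adjusted p = 0.63), and Myh3 (-1.46), Tnni1 (-1.5), Tnnt1 (-1.93) and Igf2 (-2.33) were lower at 3 days than at 7 days. Of these 4 falls Igf2 was called with all 25 arrays (adjusted p = 0.00078) and the others were not (0.30, 0.29 and 0.13). Of 37 TCA and fatty acid genes 10 were lower than at 1 day and 22 lower than at 7 days, beside 2.96% and 4.92% of all genes. By limma with all 25 arrays 0 and 0 were called, with 16 and 22 lower at an unadjusted p under 0.05. The medians of the list against control were -0.09 after 6 hours, -0.27 after 1 day, -0.93 after 3 days and -0.21 after 7 days.

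**Figure D4:**
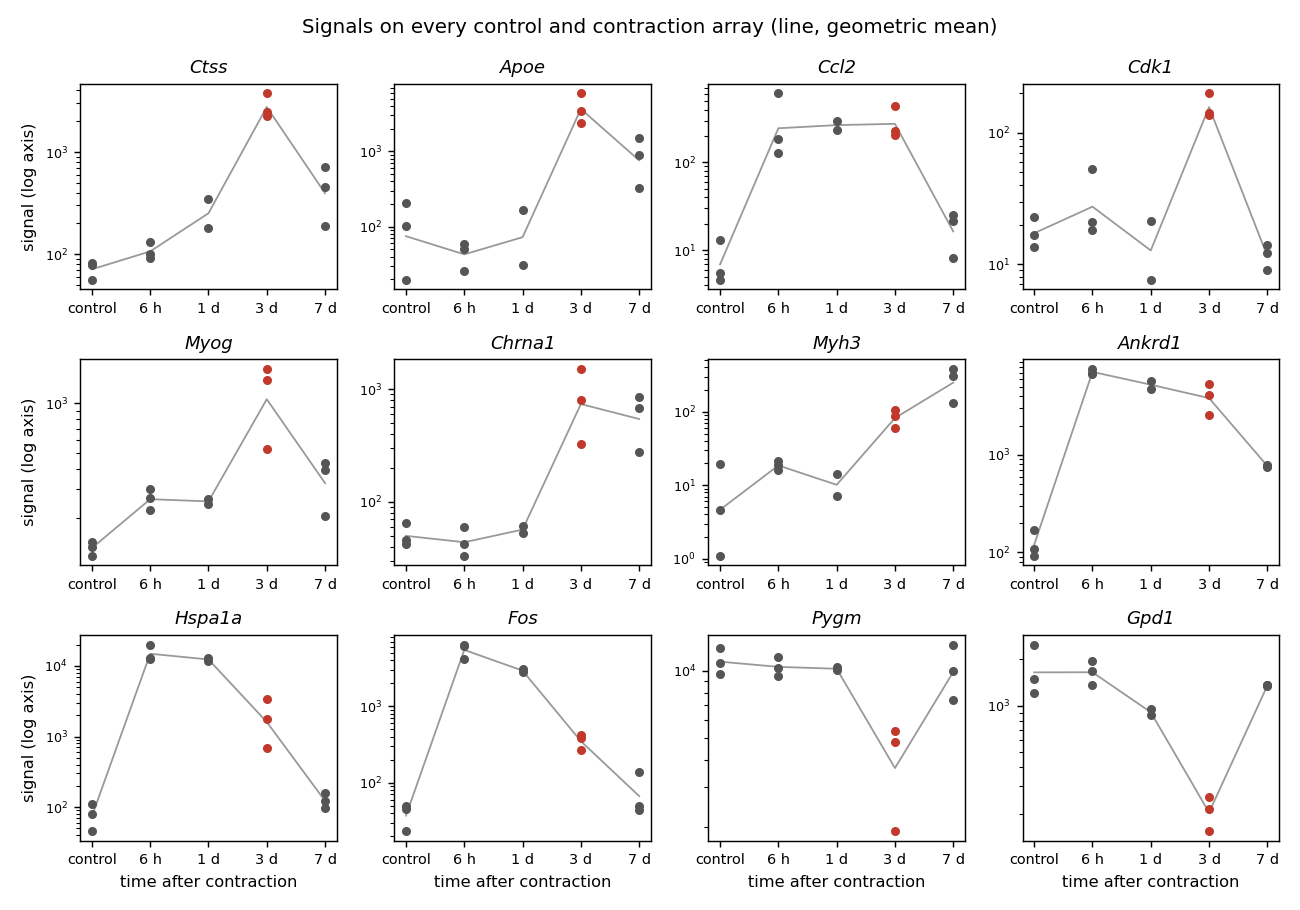
Signals of 12 genes on every control and contraction array, on log axes, with 3 day arrays in red and a line through the geometric means. Ctss, Apoe, Cdk1 and Myog are highest at 3 days, Ankrd1, Hspa1a and Fos are highest at 6 hours, Myh3 is highest at 7 days, and Pygm and Gpd1 are lowest at 3 days.

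The tissue label and other cell types were checked with marker lists. Fibre markers were abundant on all 6 arrays, with summed signals of 48320 to 82193 in controls and 33209 to 46780 at 3 days, and 3 of 5 (Ckm, Myh4, Mylpf) were called lower. By limma with all 25 arrays 0 of 5 were called (adjusted p = 0.19, 0.15 and 0.22 for these 3), with 1 lower at an unadjusted p under 0.05. Under quantile normalization Myh4 changed by -0.43 (adjusted p = 0.067). Summed signals of 15 macrophage markers were 1034 to 1404 in controls and 10339 to 16485 at 3 days, with 13 called higher (10 with all 25 arrays). Of 7 fibroblast markers 3 rose and 0 fell, with sums of 3189 to 5098 and 5282 to 5908, while the fibroblast genes Dcn (-0.45), Lum (0.72) and Pdgfra (0.80) were not called. With the 25 arrays 0 of the 7 were called by limma, and 2 were higher at an unadjusted p under 0.05. Of 10 endothelial and pericyte markers 2 fell, Cdh5 (-0.73 ± 0.19) and Tie1 (-0.62 ± 0.21), and 0 rose. Over all genes 9.47% fell and 12% rose. With the 25 arrays 0 of the 10 were called by limma (adjusted p = 0.057 for Cdh5 and 0.084 for Tie1), and 2 were lower at an unadjusted p under 0.05. Cdh5 was lost without array 467 (adjusted p = 0.053), and Tie1 without array 435 (0.073), array 467 (0.19), control 2 (0.060) or control 3 (0.17). Pecam1 (0.02) and Vwf (-0.02) were near 0. In nerve and Schwann cells 1 of 4, the myelin gene Mbp, fell (-0.91 ± 0.25, on 1 of 2 probe sets), lost without array 435 (adjusted p = 0.063), array 467 (0.053) or control 1 (0.054) and called with all 25 arrays. Of 3 fat, 2 tendon and 2 red cell markers tested 0 were called by limma, with 1 tendon marker, Scx, higher at an unadjusted p under 0.05. Of the smooth muscle list 1, Des, also a fibre gene, was called (0.44 ± 0.14), and it was lost without any 1 of arrays 435 (adjusted p = 0.11), 449 (0.058) and 467 (0.071) or controls 1 (0.087) and 2 (0.075), and with all 25 arrays (0.10). Des was also lost with only the 6 arrays compared (adjusted p = 0.15).

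Of 6 markers of epithelium and skin 2 were called higher (2 with all 25 arrays). Krt18 gave 33.8, 28.3 and 27.2 in controls and 311.0, 52.3 and 612.2 at 3 days, and Krt8, its keratin partner, 15.8, 15.0 and 22.4 and then 212.0, 17.2 and 302.4 (2.08 ± 0.63, adjusted p = 0.0278). On array 449 Krt8 lay within the control range. Krt18 was lost without array 435 (adjusted p = 0.064) or array 467 (0.089), and Krt8 without array 435 (0.13), array 467 (0.15), control 1 (0.074) or control 2 (0.066). The skin keratins Krt5 and Krt14 stayed at or below 19.4 on all 6 arrays and did not pass the filter, and Krt10 (-0.33) and Cdh1 (-0.24), which joins epithelial cells, were not called. Among satellite cell markers Cdh15 was called higher (0.66 ± 0.20) but lost without array 435 (adjusted p = 0.081), array 467 (0.12), control 2 (0.056) or control 3 (0.095), and with all 25 arrays (0.11). Vcam1 was not called on its brightest probe set (0.30). Myf5 did not pass the filter, with 8.5, 12 and 4.2 in controls and 37.6, 15.8 and 20.4 at 3 days, without overlap at the dim end of the array. The part that shifts in cell types had in the other results was not tested.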

How the data were processed

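RNA of mouse tibialis anterior muscle was hybridised to 25 Affymetrix arrays, 1 per sample. The authors deposited 1 signal intensity per probe set, on a linear scale, made with MAS5 per the submitters' processing notes; no version was given. No counts exist, so the number of arrays limits the precision. Signals were used as log2(signal + 13), where 13 is the 20th percentile of all values. Of 12422 probe sets that are no controls, 10833 had 1 gene symbol, 396 several and 1193 none. The 9033 probe sets tested exceeded, on 2 or more of 14 arrays, the 40th percentile of all signals on that array.

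The model held 5 groups, the control and the 4 contraction times, and was fitted with limma 3.58.1 in R 4.3.3 (lmFit, eBayes with a trend) and adjusted by Benjamini-Hochberg over all probe sets. It was run on simulated data with independent noise and 200 changed probe sets, fewer than were called here. Such data do not show the error rate on these arrays. Genes were represented by their brightest probe set. Named genes were the 12 largest changes in each direction among genes called, changed at least 2-fold and separated on every array, up to 4 members of each list at each end, and fixed representatives and markers. The members and lists were chosen with earlier results of these data known. Alternatives covered the arrays in the fit, the value added, the filter, the normalization, the prior variance, the probe set rule and leaving out each array. Promoter sequences are from RefSeq.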

Additional observations from a re-analysis of the deposited data

Results flagged for a closer look

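Representative genes are given here where the contraction effect at 3 days differed from that at 1 day or 7 days by the test of the difference itself (limma, adjusted p under 0.05). Of these 54 differences 14 were called with all 25 arrays and 40 were not. Values are log2 differences of the 3 day group minus the other time, with 1 day first and 7 days second where both are given. The macrophage genes Cd68 (1.42 and 2.10), Adgre1 (2.27 and 2.63), Csf1r (2.34 and 2.37), Lgals3 (3.29 and 1.38), Apoe (5.36 and 2.24), Ctss (3.38 and 2.76), Lyz2 (2.99 and 3.19) and Mmp12 (3.33 and 2.64) were higher at 3 days than at both times. So were the chemokine gene Ccl8 (2.54 and 2.21) and the division genes Stmn1 (2.52 and 2.15), Cdk1 (2.68 and 2.79), Top2a (1.69 and 1.85) and Ccnd1 (1.14 and 1.12), and Myog (2.01 and 1.65). Lower than at both times were Pygm (-1.48 and -1.43), Gpd1 (-2.08 and -2.64) and Mstn (-1.87 and -1.02). Csrp3 (-1.65 and 1.25), Hspa1a (-2.93 and 3.58) and Fos (-3.02 and 2.16) lay below 1 day and above 7 days, and Myh3 (2.02 and -1.46) the reverse.

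Against 1 day alone, Col3a1 (1.30) and Chrna1 (3.43) were higher at 3 days. Against 7 days alone, Ccl2 (3.25), Mcm5 (1.26), Timp1 (1.35), Ankrd1 (2.29), Myc (1.21), Hmox1 (0.91) and Mt1 (2.03) were higher, and Igf2 (-2.33), Ckm (-0.76) and Cox8b (-0.98) were lower.

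The 3' to 5' ratio of the actin control probe sets, which no comparison used, was higher at 3 days than in controls by 0.93 on the log2 scale. Its range was 0.522 to 0.716 at 7 days, 0.572 to 0.669 at 6 hours and 0.617 to 0.641 at 1 day after contraction, all below the 3 day arrays. After freezing it was 0.657 to 0.955 at 6 hours, 1.01 to 1.31 at 1 day, 0.741 to 1.09 at 3 days and 0.776 to 0.808 at 7 days.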

How the results depend on the processing

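Of 242 named genes 192 were called at 3 days against control, and 104 of these kept their direction and call under every alternative run. The other 88 lost the call under at least 1, 79 of them with all 25 arrays, and 0 changed sign. At an adjusted p under 0.01 the counts were 952 against control (625 higher, 327 lower), 247 against 1 day and 387 against 7 days. With all 25 arrays they were 784 (539 and 245), 110 and 80, and with sample 436 alone left out of these 2163, 925 and 1250. With the 6 arrays compared the lower count was 463. Leaving out 1 array at a time gave 1128 to 1738 probe sets against control (697 to 991 higher, 431 to 772 lower), 154 to 707 against 1 day and 389 to 1006 against 7 days, the lowest without arrays 435, 463 and 435. With sample 436 alone left out of the 25 arrays 1 named gene lost its call, beside 79 with all 25. In that fit each gene list had at least as many members called against control, in each direction, as in the main fit. The median spread within groups (residual standard deviation) was 0.325 in the main fit. It was 0.385 with all 25 arrays and 0.323 with sample 436 left out of these. The causes of lost calls were not tested. With 3 arrays a group, an exact permutation test cannot go below 0.1. Signals near 13 units are compressed. No paired analysis was possible because the groups compared share no sample numbers.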

Other observations

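Muscles taken 3 days after freezing were set beside the contraction muscles as values only, with no test. Sample 436 of the freeze group, which correlated better with the controls than with its own group, is given first and apart. Why it did so was not tested. Ankrd1 gave 276.2, then 961.1 and 955.3 after freezing, and 4166.9, 2540.5 and 5304.1 after contraction. Csrp3 gave 504.2, then 522.0 and 411.9, and 2440.9, 3880.4 and 2776.2. Hspa1a gave 103.5, then 73.8 and 57.8, and 682.8, 1763.1 and 3452.6. In these 3 genes the contraction arrays all lay above the freeze arrays. The genes set side by side here were chosen after their values were seen.

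For Apoe, Ctss and Cdk1 the freeze arrays other than 436 lay above the contraction arrays. Apoe gave 17.7, then 9669.3 and 10508.8 after freezing, and 5974.8, 2356.4 and 3484.0 after contraction. Ctss gave 36.4, then 6165.7 and 6802.7, and 3781.7, 2240.4 and 2475.0. Cdk1 gave 36.9, then 337.6 and 327.7, and 201.8, 136.7 and 141.8. Mmp12 differed from these, with 21.0, then 334.2 and 322.8 after freezing, and 1341.4, 512.0 and 822.8 after contraction.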
